A study of Mus musculus with 4 samples.

Results

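The aryl hydrocarbon receptor (AHR) pathway is described here through 7 genes: the receptor gene Ahr, its partner Arnt, the repressor Ahrr, and the target genes Cyp1a1, Cyp1b1, Tiparp and Aldh3a1. They were chosen by symbol, because auxin is an indole and the pathway responds to indoles. The rule used no measured value, but the genes were chosen with earlier results of these data known. All 7 symbols matched 1 row each among the 30282 genes of the deposited table, of which 9009 carry no symbol. AHR is a ligand-activated transcription factor of the bHLH-PAS class that waits in the cytoplasm with HSP90 and other chaperones. Once bound by a planar aromatic ligand such as dioxin, or by one of several indoles derived from tryptophan, it enters the nucleus, pairs with ARNT and binds xenobiotic response elements built on the letters GCGTG. Its best known targets encode enzymes that oxidise foreign compounds, and the proteins made from Ahrr and Tiparp act back on the receptor to dampen it.

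RNA came from V6.5 mouse embryonic stem cells grown with the GSK3 inhibitor CHIR99021 (3 µM) and the MEK inhibitor PD0325901 (0.5 µM), in which RPB3 carries a mini auxin-inducible degron and GFP (labelled dRPB3-mAID-GFP). RPB3 is the product of Polr2c and a core subunit of RNA polymerase II. The IAA group (2 libraries) received 1 µg/ml doxycycline for 12 h, which switches on the plant F-box protein TIR1, and after that 500 µM indole-3-acetic acid (IAA, auxin) for 12 h. The Untreated group (2 libraries) received the doxycycline alone, so TIR1 was induced in both groups. The protocol text also speaks of a 1 h depletion, while the sample labels give 12 h, and the labels were followed. Cells that received IAA but lack the degron were not analysed here, so an effect of the indole itself and an effect of losing RPB3 cannot be told apart in any value below. The labels name neither the number of clones behind the line nor separate cultures for the replicates, so p-values reflect how far these particular libraries differ, which may be technical variation alone.

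The reads recovered from the table summed to between 8724737 and 9194432 per library. Across 14928 genes with a mean normalised read count of at least 10, limma called 1650 higher and 4312 lower after IAA (adjusted p under 0.05). With median-of-ratios scaling the split was 3037 higher and 3054 lower, and the median log2 fold change of all tested genes was -0.01 in place of -0.11. The sources used here do not say whether the deposited size factors came from mouse reads or from the reads of the dm6 (Drosophila) build that the processing notes also name. They are not the median-of-ratios factors of the mouse reads, which were 1.04 and 0.994 in the IAA libraries and 0.988 and 0.992 in the Untreated libraries. Which of the 2 splits describes the cells therefore cannot be told here, and each fold change below is relative to the deposited factors. Polr2c mRNA had 3242 and 3158 normalised read counts in the IAA libraries, against 2726 and 2885 in the Untreated libraries, which does not measure the degraded protein. All 8 pluripotency markers were well read, and they moved both ways, with 3 called higher and 3 lower. Nanog and Esrrb were read most, Nanog with a mean of 12173 in the IAA libraries and 9662 in the Untreated libraries (called higher) and Esrrb with 9033 in the IAA libraries and 8966 in the Untreated libraries (not called). The markers called higher were Klf4 (log2 fold change 0.52), Nanog (0.33) and Tfcp2l1 (0.27). Pou5f1 (-0.24), Dppa5a (-0.36) and Zfp42 (-0.15) were the markers called lower. With median-of-ratios scaling 5 were called higher and 2 lower, and Zfp42 was not called. Of 8 fibroblast feeder markers 4 had a row under their symbol. Together these 4 summed to 117 to 135 in the IAA libraries, against 191 to 242 in the Untreated libraries. They were led by Thy1 (84 and 94 against 140 and 167) and Col1a1 (30 and 32 against 41 and 69). Endoderm markers summed to 177 to 212 in the IAA libraries and 204 to 228 in the Untreated libraries, with Gata4 and Dab2 highest. Neuroectoderm markers summed to 2017 to 2149 in the IAA libraries and 1672 to 1849 in the Untreated libraries, mostly from Nes and Tubb3, and trophoblast markers to 725 to 759 in the IAA libraries and 683 to 698 in the Untreated libraries, mostly from Tfap2c and Eomes.

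After 12 h of IAA no gene of the AHR pathway set was called higher, and Arnt and Aldh3a1 were called lower. Aldh3a1 had about 0.53 times its level in Untreated libraries and Arnt about 0.86 times. Ahr, Ahrr and Tiparp were not called, and the classical target genes Cyp1a1 and Cyp1b1 were read too few times to be tested. Thus 5 of 7 genes passed the filter on low values, 0 were called higher and 2 were called lower. At an unadjusted p under 0.05 in limma 0 of the 5 were higher as well, beside 2108 of all 14928 tested genes. The share called among all tested genes was 11.1% higher and 28.9% lower, or 39.9% in either direction. The ranges of the groups did not overlap for 2 of these 5 genes, against 68.1% of all tested genes. In the authors' deposited table, made with DESeq2, all 7 carry the label unchanged and none of the 4 with an adjusted p passed 0.05. At an unadjusted p under 0.05 it has 2 of the 7, both lower. Over all 30282 genes, 704 were higher and 2190 lower at that unadjusted cut. Of the 11495 genes to which that table gives an adjusted p, it calls 2.47% higher and 9.57% lower at the same threshold, 12% in either direction.

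**Figure D1:**
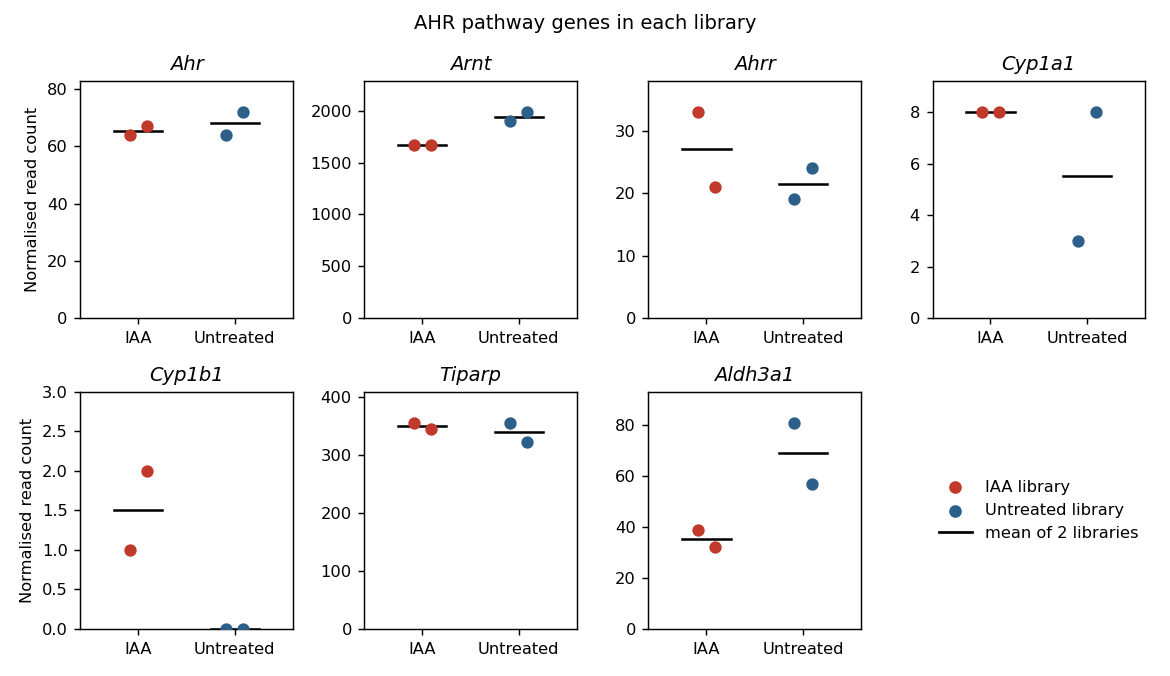
Normalised read counts (y axis, from 0, a separate scale per gene) of the 7 AHR pathway genes in the 2 IAA libraries (red, left) and the 2 Untreated libraries (blue, right), with a bar at each group's mean. The groups stand apart for Arnt and Aldh3a1, which lie lower after IAA, and for Cyp1b1 at 0 to 2 counts, and share part of their range for the other 4 genes.

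Ahr, which encodes the receptor, was read at a low level and was not called. The gene (ENSMUSG00000019256) lies on chromosome 12 from 35497974 to 35535038 on the minus strand of GRCm38, the assembly also called mm10. Ahr had 64 and 67 normalised read counts in the IAA libraries, against 64 and 72 in the Untreated libraries. The 2 groups overlapped and shared their lowest value. The means were 65.5 ± 2.12 in IAA libraries and 68.0 ± 5.66 in Untreated libraries (SD, n = 2 each). The log2 fold change was -0.051 (SE 0.18; limma adjusted p = 0.849), with a 95% interval of the fold from 0.745 to 1.25. Its sign depended on the scaling and was positive with median-of-ratios factors (0.055). An opposite-strand lincRNA, Gm48236, shares 127 exon bases with Ahr, and its own level was not analysed here.

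Arnt, which encodes the obligate nuclear partner of AHR and also of the hypoxia-inducible factors, was the most abundant of the 7 and fell slightly. The gene (ENSMUSG00000015522) lies on chromosome 3 from 95434388 to 95497240. It had 1665 and 1664 normalised read counts in the IAA libraries, against 1897 and 1987 in the Untreated libraries. Both IAA libraries lay below both Untreated libraries. The means were 1665 ± 0.707 in IAA libraries and 1942 ± 63.6 in Untreated libraries (SD, n = 2 each), with a log2 fold change equal to -0.22 (SE 0.047; limma adjusted p = 0.000763). The bulk of genes moved the same way: relative to the median of all tested genes the difference was -0.11, and 36.1% of tested genes had a lower fold change. With median-of-ratios scaling the log2 fold change was -0.12, still called (limma adjusted p = 0.027). With no filter on low values limma gave an adjusted p of 0.0685 and the authors' deposited table gives 0.114, neither of which passes.

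Ahrr, the repressor that competes with AHR for ARNT and for the same DNA element, is itself a target of the receptor in many tissues. The gene (ENSMUSG00000021575) spans chromosome 13 from 74211118 to 74292331 on the minus strand. It had 33 and 21 normalised read counts in the IAA libraries, against 19 and 24 in the Untreated libraries. One IAA library was above both Untreated libraries and the other lay between them. The means were 27.0 ± 8.49 in IAA libraries and 21.5 ± 3.54 in Untreated libraries (SD, n = 2 each), with a log2 fold change equal to 0.29 (SE 0.31; limma adjusted p = 0.485) with a 95% interval of the fold from 0.782 to 1.91. Without IAA replicate 1 the log2 fold change was -0.023. A difference in Ahrr was not detectable at this depth.

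The element that AHR and ARNT bind can be read in the start regions of these genes, and 5 of the 7 matched the RefSeq promoter table (GRCm38.p6). The windows below are the 250 bases before an annotated start, written 5′ to 3′ along the gene, with each core GCGTG, or its reverse complement CACGC, in capitals. They are shown for the 4 genes of the set that the receptor regulates and that the table holds. Ahrr is at chr13:74292332-74292581 (minus strand), Cyp1a1 at chr9:57697363-57697612 (plus), Cyp1b1 at chr17:79715062-79715311 (minus) and Tiparp at chr3:65528197-65528446 (plus).
Ahrr: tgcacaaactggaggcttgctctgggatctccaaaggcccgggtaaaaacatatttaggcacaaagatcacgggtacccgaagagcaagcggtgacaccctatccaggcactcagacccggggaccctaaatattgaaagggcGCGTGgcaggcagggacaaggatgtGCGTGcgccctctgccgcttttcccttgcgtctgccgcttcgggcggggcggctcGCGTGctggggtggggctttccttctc
Cyp1a1: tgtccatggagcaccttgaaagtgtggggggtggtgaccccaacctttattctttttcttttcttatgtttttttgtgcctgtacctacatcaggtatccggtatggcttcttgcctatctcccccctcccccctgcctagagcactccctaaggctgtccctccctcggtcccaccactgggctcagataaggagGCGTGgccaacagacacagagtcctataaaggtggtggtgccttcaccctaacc
Cyp1b1: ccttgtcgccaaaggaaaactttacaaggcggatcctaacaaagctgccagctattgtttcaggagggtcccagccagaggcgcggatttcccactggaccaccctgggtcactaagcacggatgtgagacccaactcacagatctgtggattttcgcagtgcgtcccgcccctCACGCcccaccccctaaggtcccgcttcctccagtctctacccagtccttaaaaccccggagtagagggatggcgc
Tiparp: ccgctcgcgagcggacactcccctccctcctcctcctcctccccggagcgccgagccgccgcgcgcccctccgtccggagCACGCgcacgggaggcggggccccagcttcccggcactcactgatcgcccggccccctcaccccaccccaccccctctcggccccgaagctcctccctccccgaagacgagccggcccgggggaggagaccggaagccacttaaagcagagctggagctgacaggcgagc
Ahrr held 3 cores, which begin 107, 82 and 27 bases before the start, and the others held 1 each, beginning 54 bases before it in Cyp1a1, 76 in Cyp1b1 and 170 in Tiparp. The window of Arnt also held 1. Over all 32851 windows of this length, 28.2% had at least 1 core and 2.77% had 3 or more on either strand, with overlapping matches counted. The longer form TNGCGTG, which contains the core, was found once in Ahrr and in no other of these 5 windows, and in 4.10% of all windows. The letters of the core are frequent in GC-rich sequence, and GC content was 60.4% in Ahrr and 75.2% in Tiparp against a median of 52.4%. A match describes letters, not binding, and the well studied elements of Cyp1a1 lie further upstream than this window.

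Cyp1a1, the P450 enzyme most used as a readout of AHR activity, was near the detection limit in all 4 libraries. The gene (ENSMUSG00000032315, chromosome 9, 57687928 to 57703824) had 8 and 8 normalised read counts in the IAA libraries, against 3 and 8 in the Untreated libraries. The groups overlapped, since one Untreated library was equal to both IAA libraries. These values stand for 16 reads in the IAA libraries and 10 reads in the Untreated libraries, that is 0.890 RPM (reads scaled to a library of 1000000) after IAA and 0.571 RPM in Untreated cells. The ratio of the summed reads, corrected for the deposited size factors, was 1.45, with an exact 95% interval from 0.619 to 3.58 that covers counting error only. In a limma fit with no filter on low values the log2 fold change was 0.58 (SE 0.50; limma adjusted p = 0.491), and the 95% interval of the fold ran from 0.515 to 4.37. A difference in Cyp1a1 was not detectable at this depth.

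Cyp1b1, a P450 of xenobiotics and steroid hormones, was at or below the floor of detection in both groups. The gene (ENSMUSG00000024087, chromosome 17, 79701537 to 79715061, minus strand) had 1 and 2 reads in the IAA libraries and 0 and 0 in the Untreated libraries. The 3 reads of the IAA group come to 0.167 RPM (exact Poisson 95% interval 0.0344 to 0.488, counting error only), and the 0 reads of the Untreated group to 0 RPM, with an upper limit of 0.211 RPM by the same interval. Both groups thus lie at or under 3 reads, and no fold is given. With no filter on low values this was the 1 gene of the set with an unadjusted p under 0.05 in the higher direction, and its limma adjusted p was 0.113. Over all genes, 2743 of 30282 passed that unadjusted cut in the higher direction.

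Tiparp, which encodes a mono-ADP-ribosyltransferase that modifies AHR and is one of its most general targets, was read well and was not called. The gene (ENSMUSG00000034640) lies on chromosome 3 from 65528410 to 65555518. It had 354 and 344 normalised read counts in the IAA libraries, against 355 and 322 in the Untreated libraries. The IAA values lay inside the range of the Untreated values. The means were 349 ± 7.07 in IAA libraries and 338.5 ± 23.3 in Untreated libraries (SD, n = 2 each), with a log2 fold change equal to 0.046 (SE 0.086; limma adjusted p = 0.708). The 95% interval of the fold ran from 0.912 to 1.17, the narrowest among the 3 targets tested, which are Ahrr, Tiparp and Aldh3a1. With median-of-ratios scaling the log2 fold change was 0.15 and not called (limma adjusted p = 0.173). The opposite-strand transcribed pseudogene 4931440P22Rik shares 223 exon bases with Tiparp and was read at 10 and 13 in the IAA libraries, against 15 and 24 in the Untreated libraries.

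Aldh3a1 had the largest change of the 5 genes tested, and it was a fall. The gene encodes an aldehyde dehydrogenase that is abundant in the cornea and belongs to the dioxin-inducible battery of the mouse liver (ENSMUSG00000019102, chromosome 11, 61207537 to 61218421). It had 39 and 32 normalised read counts in the IAA libraries, against 81 and 57 in the Untreated libraries. Both IAA libraries lay below both Untreated libraries, which differed from each other more than the IAA libraries did. The means were 35.5 ± 4.95 in IAA libraries and 69.0 ± 17.0 in Untreated libraries (SD, n = 2 each), with a log2 fold change equal to -0.92 (SE 0.22; limma adjusted p = 0.00256) with a 95% interval of the fold from 0.381 to 0.728. Only 2.92% of tested genes had a lower fold change. The size was similar with median-of-ratios scaling (-0.84), while the authors' deposited table gives -0.96 with an adjusted p of 0.200, and limma with no filter on low values an adjusted p of 0.134. Thy1 and Col1a1, the feeder markers read best, fell too (log2 fold changes of -0.78 and -0.76). In the authors' deposited table neither passed (adjusted p of 0.0911 and 0.381). Only 4 of the 8 feeder markers listed had a row under their symbol. Besides Thy1 and Col1a1 these were Col1a2 and Col3a1, which overlapped between groups and were below the filter on low values. Col1a2 had 3 and 7 in the IAA libraries, against 9 and 6 in the Untreated libraries, and Col3a1 0 and 2 against 1 and 0. A part of feeder cells in the fall of Aldh3a1 was not tested. Fewer cells of a type and less RNA per cell cannot be told apart in such bulk samples.

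**Figure D2:**
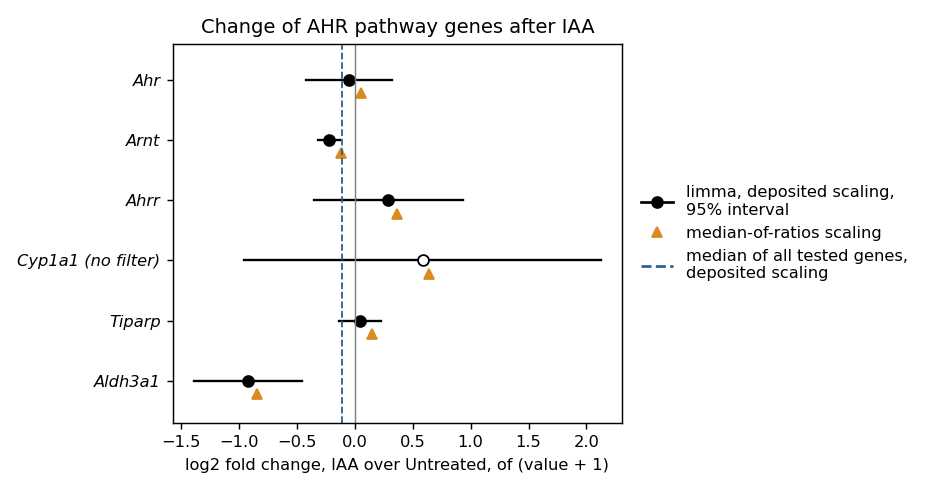
The log2 fold change (x axis, IAA over Untreated, of the value plus 1) of 6 AHR pathway genes at the deposited scaling (circles, with 95% limma intervals; open for Cyp1a1, fitted with no filter) and with median-of-ratios scaling (triangles). Arnt at -0.22 and Aldh3a1 at -0.92 have intervals below 0, the dashed line marks the median of all tested genes at -0.11, and Cyp1b1 is left out because both groups were at or under 3 reads.

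Set against exon length, the 7 genes spanned levels from Arnt down to Cyp1b1, in nearly the same order in both groups. Levels here are normalised read counts per kb of annotated exon, which allows genes to be compared with each other. In the IAA libraries Arnt stood highest at 208 per kb in each library, followed by Tiparp at 78.9 to 81.2, Aldh3a1 at 16.5 to 20.1 and Ahr at 10.4 to 10.9. Ahrr (2.22 to 3.50) and Cyp1a1 (2.87 in both) were not apart, and Cyp1b1 was at 0.171 to 0.342. In the Untreated libraries Arnt had 237 to 248 per kb, Tiparp 73.9 to 81.5, Aldh3a1 29.4 to 41.7 and Ahr 10.4 to 11.7. Ahrr (2.01 to 2.54) and Cyp1a1 (1.08 to 2.87) again overlapped, and Cyp1b1 was at 0. Every other pair of neighbours in this order had ranges that did not overlap. By mean level per kb over the 4 libraries, Ahr was above 36.7% of the 17590 protein-coding genes of the table, Arnt above 86.0% and Cyp1a1 above 23.5%.

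**Figure D3:**
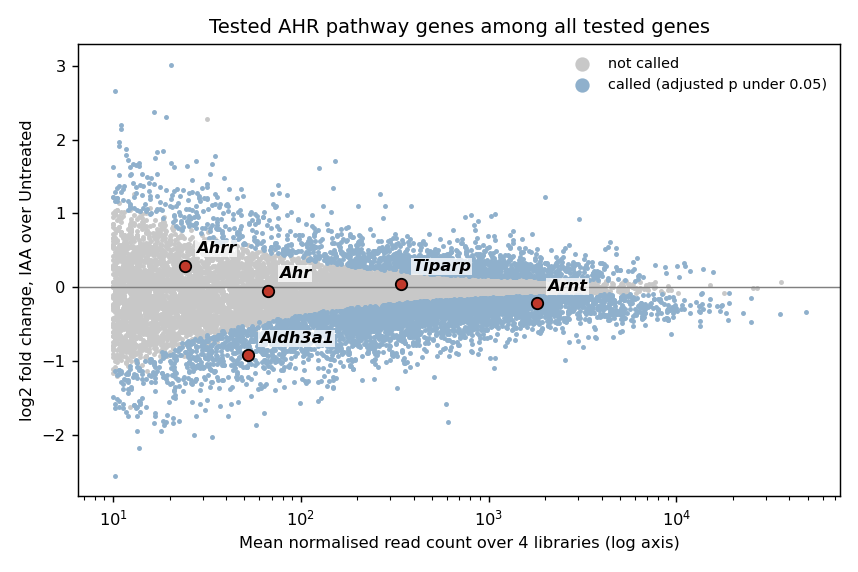
The log2 fold change (y axis, IAA over Untreated) against the mean normalised read count over 4 libraries (x axis, log) for all 14928 tested genes, grey where not called and blue where called, with the 5 tested AHR pathway genes in red. Ahr, Ahrr and Tiparp sit within the grey band at their own level of expression, Arnt at -0.22 lies among the many slightly lower genes, and Aldh3a1 at -0.92 lies toward the lower edge.

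The genes around the receptor were counted next, in lists that cover its chaperones, further targets, cofactors, relatives and the enzymes that make its ligands. Their counts stand beside the 11.1% called higher and 28.9% called lower among all tested genes, and they are descriptions of the lists. Of the chaperones and the alternative partner Arnt2, 2 of 4 tested were lower and 0 higher, with a median log2 fold change of -0.13. Hsp90ab1, one of the 2 cytosolic HSP90 genes, had 31451 and 30916 normalised read counts in the IAA libraries, against 40058 and 40453 in the Untreated libraries (log2 fold change -0.37; limma adjusted p = 6.80e-10). Ptges3, the HSP90 co-chaperone p23, fell by 0.22 on the log2 scale. The inducible HSP90 gene Hsp90aa1 did not pass at the deposited scaling (-0.012) but passed as higher once median-of-ratios factors were used (0.088). Both falls were called under both scalings and in the authors' deposited table, while limma with no filter on low values called 1 gene of this list, also lower.

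Further target genes gave 3 higher and 0 lower of 7 tested, with a median log2 fold change of -0.037, beside -0.11 over all tested genes. Nqo1, a quinone reductase, had 1017 and 998 normalised read counts in the IAA libraries, against 757 and 745 in the Untreated libraries, and the groups did not overlap (log2 fold change 0.42; limma adjusted p = 7.85e-06). Nfe2l2, the gene of the oxidative stress factor NRF2, which itself acts on Nqo1, had 1247 and 1304 in the IAA libraries, against 910 and 902 in the Untreated libraries (0.49; limma adjusted p = 6.20e-07). Hes1, a Notch effector, was close to the threshold (0.16, limma adjusted p = 0.0499), with a log2 fold change of 0.087 without Untreated replicate 2. Close to it on the other side were Cyp2s1 (-0.25, limma adjusted p = 0.0577) and Selenbp1 (-0.46, limma adjusted p = 0.0639). The list had 2 lower at an adjusted p under 0.1 or with unrounded values. It had 1 lower at a mean of at least 100 or in limma on the recovered reads (voom), and 0 lower with median-of-ratios scaling. By the adjusted p in the authors' deposited table, Nqo1 and Nfe2l2 were the 2 genes of this list that passed, both higher. Of the 15 genes listed, 4 had no row under their symbol (Ugt1a6a, Ugt1a6b, Gsta1 and Ereg). Another 4 were below the filter, among them Cyp1a2, the neighbour of Cyp1a1. Cyp1a2 had 4 and 3 in the IAA libraries and 2 and 2 in the Untreated libraries.

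Cofactors and turnover factors of AHR split, with 3 higher and 5 lower of 15 tested and a median log2 fold change of 0.0011. Crebbp (0.41), Ep300 (0.15) and Ncoa3 (0.12), all histone acetyltransferases or coactivators, were higher. Smarca4, the ATPase of the BAF remodeller that AHR recruits, had 2565 and 2574 normalised read counts in the IAA libraries, against 3573 and 3618 in the Untreated libraries (-0.48; limma adjusted p = 1.41e-08). Rb1 (-0.42) and Ddb1, a subunit of the CUL4 ubiquitin ligase (-0.30), were lower as well. With median-of-ratios scaling the count turned to 7 higher and 3 lower, so the balance of this list rests on the scaling. It was 1 higher (Crebbp) and 2 lower (Smarca4 and Ddb1) in the authors' deposited table, where Ep300, Ncoa3 and Rb1 did not pass (adjusted p of 0.325, 0.452 and 0.332), and 1 higher and 1 lower in limma with no filter on low values.

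Relatives of AHR and the enzymes around it were called in both directions, in shares to be read against the 39.9% of all tested genes called in either direction. None of the calls in these 3 lists was made in the authors' deposited table or by limma with no filter on low values, where each list had 0 higher and 0 lower. In the authors' deposited table the adjusted p came closest for Hif3a (0.0523) and Cyb5b (0.0760). Other bHLH-PAS genes had 1 higher and 2 lower of 7 tested (median -0.13). Hif3a, an inhibitory relative of the hypoxia factors, had 60 and 44 normalised read counts in the IAA libraries, against 103 and 118 in the Untreated libraries (log2 fold change -1.09; limma adjusted p = 9.21e-05). Hif1a, the oxygen-sensitive partner of ARNT, was lower (-0.26) and the clock gene Clock higher (0.22). Of the tryptophan and kynurenine enzymes, which form natural AHR ligands, 0 of 5 tested were higher and 1 was lower (median -0.41). That gene, Kyat3, had 53 and 18 in the IAA libraries, against 65 and 69 in the Untreated libraries, so the IAA libraries differed widely between themselves (-1.09; limma adjusted p = 0.0102). Its log2 fold change was -1.84 without IAA replicate 1 and -0.33 without IAA replicate 2. Ido1 and Tdo2, whose enzymes open the indole ring of tryptophan, had at most 2 in any library. Among P450 electron donors and relatives of Aldh3a1, 2 of 5 tested were higher and 0 lower (median 0.11): Por, the reductase that feeds all microsomal P450 enzymes (0.20), and Cyb5b (0.21, or 0.14 without Untreated replicate 1). Aldh3a2 (0.11; limma adjusted p = 0.185) and Aldh3b1 (0.072; limma adjusted p = 0.801), the closest tested relatives of Aldh3a1, were not called.

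**Figure D4:**
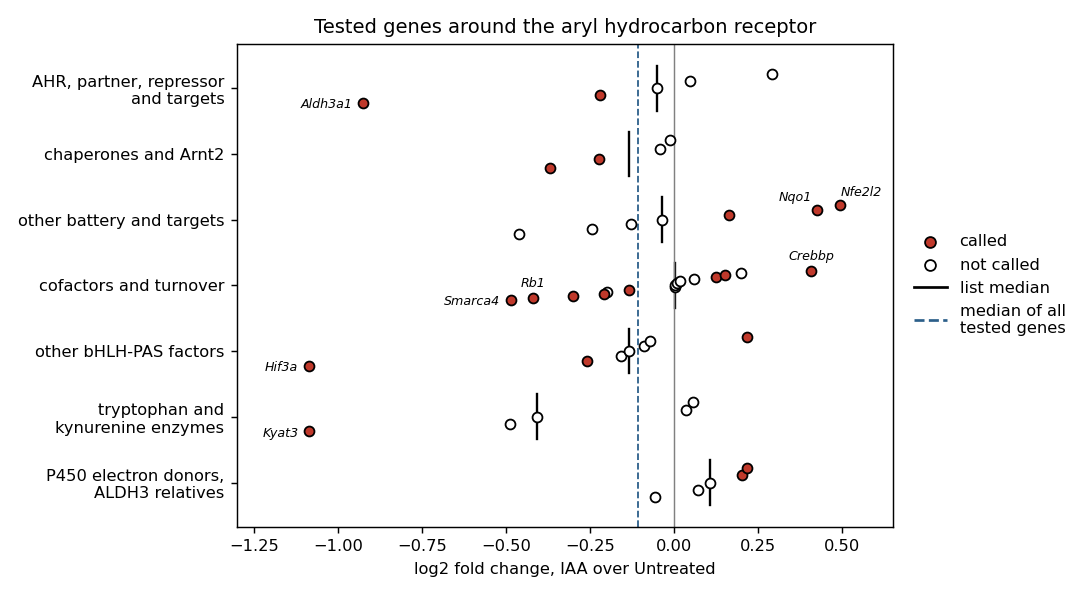
The log2 fold change (x axis, IAA over Untreated) of every tested gene of the AHR set and of 6 lists of related genes (rows), red where called and open where not, with a bar at each list's median and a dashed line at the median of all tested genes (-0.11). Called genes lie on both sides of 0, and the larger changes are the falls of Hif3a and Kyat3 (both -1.09) and Aldh3a1 (-0.92).

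The genes whose profile over the 4 libraries was most like that of Ahr were Gskip, Cenpq, Acbd6 and Txndc17. Likeness was the Euclidean distance between log2 profiles, each centred on its own mean, among 9416 named genes whose mean reached 100, and the 4 distances lay between 0.0109 and 0.0147. Gskip, for example, had 112 and 118 normalised read counts in the IAA libraries, against 113 and 126 in the Untreated libraries. A ranking over 4 libraries is a description of these libraries.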

How the data were processed

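Poly(A) RNA-seq libraries (2 IAA, 2 Untreated, grouped by title) share 1 table. Per the submitters' processing notes, the builds were mm10 and dm6 and the tools, listed with no roles, included STAR, Bowtie2, featureCounts, DESeq2, SAMtools, deepTools and cutadapt 1.18. No strand setting or annotation is given in the sources used here. What the authors deposited per library is a score: counts divided by a size factor per library (0.98 and 0.95 IAA, 0.88 and 0.87 Untreated, from the values) and rounded; no source used here says whether mouse or dm6 reads gave these factors. The deposited mean is a signal, the unrounded average, from which whole reads were recovered for 100% of genes (tolerance 0.001). The authors also deposited log2 fold changes, their standard errors, Wald scores and p-values, from DESeq2 per the file name.

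Genes with a mean of at least 10 were compared as log2(value + 1) by limma 3.58.1, run under R 4.3.3 (empirical Bayes trend, two-sided, Benjamini-Hochberg over all 14928 genes, called under 0.05). This scale understates changes of low genes. The columns are rounded scores, so the comparison was planned without a count model, and none was fitted. Limma on the recovered reads (voom) called 1754 genes higher and 4479 lower, and limma on unrounded values 1789 and 4549. The script was run on simulated data with few changed genes and a fixed spread, unlike these data. That run does not bear on the calls made here. Members, lists and tests were chosen with earlier results of these data known. Named genes are all members and the 4 genes most like Ahr. Also named are every called gene of a list (the 3 largest each way where more than 5 were called) and the 2 highest markers per marker list. Others (Pou5f1, Dppa5a, Zfp42, Klf4, Tfcp2l1, Col1a2, Col3a1, Hsp90aa1, Cyp1a2, Cyp2s1, Selenbp1, Gsta2, Xdh, Ido1, Tdo2, Aldh3a2, Aldh3b1, Ptgs2) were chosen after their values were seen. Coordinates and exon lengths are from GENCODE M21 (GRCm38), which held 30214 of the 30282 genes. Intervals from reads cover counting error only. 1 gene of the chaperone list is not reported here.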

Additional observations from a re-analysis of the deposited data

How the results depend on the processing

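No pathway gene was called higher under any of the alternatives run. Leaving out any 1 of the 4 libraries left 0 genes called higher, 0 called lower and 0 pathway genes called lower in limma, which then takes the spread of the lone library from the other group; 1091 to 1588 genes then had an unadjusted p under 0.05 higher and 3330 to 3682 lower, among them 1 to 2 pathway genes, all lower. As no gene at all was then called, these fits cannot show whether the calls of Arnt and Aldh3a1 in particular hold. Without 1 library the log2 fold change of Aldh3a1 was -0.67 to -1.17 and that of Arnt -0.19 to -0.26. The pathway genes called lower were 0 of 7 with no filter on low values and 0 of 4 in the authors' deposited test. At a mean of at least 100 Arnt was called lower, with 2 tested. Over all genes, 179 were called higher and 638 lower of 30282 with no filter. At a mean of at least 100 these counts were 1503 and 3754 of 9727. In the authors' deposited test they were 284 and 1100 of 11495. Genes called higher were 3037 with median-of-ratios scaling, 3083 with library totals and 1037 at the threshold of 0.01. Among the AHR pathway genes, the signs that turned belonged to genes not called under either setting. Of the related genes, Hsp90aa1 turned from -0.012 to 0.088 with median-of-ratios scaling and was then called. Other related genes turned sign with that scaling too, but were not called under either scaling. Ahr had 0.055 with median-of-ratios scaling and 0.059 with library totals, and -0.13 to 0.033 without 1 library, positive without Untreated replicate 2. Without 1 library Ahrr ranged from -0.023 (IAA replicate 1 left out) to 0.60, Tiparp from -0.025 (Untreated replicate 2 left out) to 0.12, and Cyp1a1, fitted with no filter, from 0 (Untreated replicate 1 left out) to 1.17. The cause of these shifts was not tested. With the replicate number as a block 1647 genes were called higher and 4311 lower, against 1650 and 4312 without it, and 2 pathway genes were called lower in both; Hes1 (limma adjusted p = 0.0505) and Ncoa3 (0.0658) then missed the threshold, so the further-target and cofactor lists had 2 higher each in place of 3, and 1 further target was called lower in place of 0; the replicate differences of the 2 groups correlated at -0.065 across genes, and the labels give no shared culture or day behind equal numbers. Depth limits Cyp1a1, Cyp1b1 and Ahrr most.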

Other observations

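Ptgs2, the gene of an inducible cyclooxygenase that AHR ligands can raise, fell just under the filter on low values. It had 13 and 14 normalised read counts in the IAA libraries, against 5 and 7 in the Untreated libraries. It was not tested in the fit with that filter. With no filter limma called 2 further target genes higher, Nqo1 and Nfe2l2, and so did not call Ptgs2. Of the other further targets under the filter, Gsta2 had 10 and 7 in the IAA libraries, against 11 and 6 in the Untreated libraries. Xdh had at most 1 in any library, and Cyp1a2 had 4 and 3 against 2 and 2.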
